A study of Mus musculus with 11 samples.

Results

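The chromosome 9 odorant receptor (OR) genes are described here as the 110 entries of the raw count table whose symbol is Olfr followed by a number, with no suffix, in the range from Olfr829 to Olfr985. They are 9.94% of the 1107 numbered Olfr symbols without suffix in a table of 24421 entries, and the other 997 such symbols served as the comparison. The rule reads the symbol only and uses no measured value. The libraries were whole main olfactory epithelium (MOE), sequenced after polyA selection, from mice labelled C57BL/6 and postnatal day 1 to 2. Wild type mice (n = 3) were compared with heterozygous (n = 4) and homozygous (n = 4) carriers of a germline deletion of the Taar gene cluster, the family of trace amine-associated receptors that some olfactory sensory neurons (OSNs) express in place of an OR. As the study describes it, the deletion removes the Taar2 to Taar9 genes together with TAAR enhancer 2, and it leaves TAAR enhancer 1 in place. No placed member of the OR set lies in the deletion. The methods also give an older age and a mixed strain background for this line, so that age and background of these mice are not certain. The labels give no litter, sex or date, and p-values therefore measure the spread between these libraries.

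Odorant receptors are the G protein-coupled receptors with which the nose detects odorants. Each mature OSN transcribes a single allele of a single OR gene, chosen from a very large repertoire that stands in clusters on many chromosomes, and the receptor signals through the G protein subunit Gnal and the adenylyl cyclase Adcy3. Stable choice is known to require the transcription factors Lhx2 and Ebf and the cofactor Ldb1, which bind enhancers spread over the OR clusters. In a bulk library the count of an OR gene thus sums over few neurons, and fewer neurons of a type and less RNA per neuron cannot be told apart.

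In the mm10 annotation (GENCODE M21), 108 of the 110 members had a position and all of them lay on chromosome 9. Olfr899 and Olfr900 were matched in neither annotation used. Of the placed genes 105 were annotated as protein coding and 3 as polymorphic pseudogenes. 71 stood on the plus strand and 37 on the minus strand. They fell into 2 groups separated by more than 1 Mb: 29 genes from Olfr829 to Olfr873 at chr9:18854933-20303599, a stretch of 1448.7 kb, and 79 genes from Olfr874 to Olfr985 at chr9:37745106-40130184, a stretch of 2385.1 kb. A further 24 numbered Olfr symbols on chromosome 9 fall outside the number range, among them Olfr151 and Olfr160, the receptors known as M71 and M72. Olfr151 had 0 to 6 counts per library and Olfr160 had 1 to 10.

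The coding sequences of the 108 placed members ran from 915 to 993 bp, with a median of 936 bp, for proteins of 305 to 331 residues. Coding sequence, read from the GENCODE transcripts, was aligned with that of the few other Olfr genes sharing the most short stretches with it. Genes outside that preselection were not aligned. Over the 108 genes, the identity to the closest OR sequence among those aligned had a median of 88.9% (59.7% to 98.1%). That closest sequence was another member for 78 genes, at a median distance of 50.3 kb. In 8 pairs, which hold 16 genes, the coding sequences were more than 95% identical. Stretches of 60 bases from 3 of these pairs follow, since these pairs show how much the counts of near-copies differ. They are the stretches with the most differences in each pair, written 5′ to 3′ on the coding strand, and the capitals mark the bases at which the genes of a pair differ. They lie at chr9:39426929-39426988 (Olfr952, minus strand), chr9:39470584-39470643 (Olfr955, minus), chr9:20171138-20171197 (Olfr870, minus), chr9:20212723-20212782 (Olfr871, plus), chr9:18944713-18944772 (Olfr832, plus) and chr9:18988053-18988112 (Olfr834, plus), all mm10 and all coding exon.
Olfr952: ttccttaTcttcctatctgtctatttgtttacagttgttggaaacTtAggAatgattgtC
Olfr955: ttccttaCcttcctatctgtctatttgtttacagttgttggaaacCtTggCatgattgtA
Olfr870: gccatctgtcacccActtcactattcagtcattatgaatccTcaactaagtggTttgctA
Olfr871: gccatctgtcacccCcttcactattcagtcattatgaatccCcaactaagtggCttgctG
Olfr832: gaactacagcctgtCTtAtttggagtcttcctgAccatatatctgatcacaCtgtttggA
Olfr834: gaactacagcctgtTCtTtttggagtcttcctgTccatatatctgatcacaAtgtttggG

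Near-identical neighbours had unlike counts in some pairs and like counts in others (these pairs were picked by identity, and the ones named were chosen after their values were seen). Olfr952 and Olfr955 differ at 18 of 942 positions, and Olfr952 had 1 count over all 11 libraries where Olfr955 had 25. Olfr832 had 61 counts and was the higher gene in 10 of 11 libraries, while Olfr834, 95.4% identical and 50.9 kb away, had 2. Olfr924 had 45 counts and its 96.1% identical neighbour Olfr926 had none in any library, where a count of 0 allows up to 3. Against these, Olfr870 and Olfr871 differ at 23 of 933 positions and had 134 and 103 counts, and Olfr910 and Olfr912 had 140 and 139. The totals were more than 2-fold apart in 4 of the 8 pairs.

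The gene models of these pairs were unlike too. The exon models of the low genes were short, 1056 bp for Olfr952, 1051 bp for Olfr926 and 939 bp for Olfr834, hardly longer than their coding sequences. Per kb of exon Olfr832 had 13.8 counts and Olfr834 had 2.13, and Olfr955 had 14.8 and Olfr952 0.947. Olfr910 had 70.1 counts per kb and Olfr912 had 24.3, so that their like counts were not like levels per length. The same scale turned the order of Olfr870, at 32.8 counts per kb, and Olfr871, at 89.8 counts per kb. Of the 15 placed members with exon models under 1200 bp, 1 passed the filter for testing, against 39 of the 93 with longer models. Per kb of exon the median was nevertheless 31.2 counts over the short models and 20.1 over the longer ones. The share of 51-base windows of the transcripts found in no other Olfr gene was 54.2% for Olfr952 and 70.0% for Olfr955. It was 94.5% for Olfr924 and 81.5% for Olfr926, and 98.9% for Olfr832 and 94.7% for Olfr834. The part of gene models and read placement in these counts was not tested. Whether the authors counted reads with several alignments is not given in the sources used here.

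**Figure D1:**
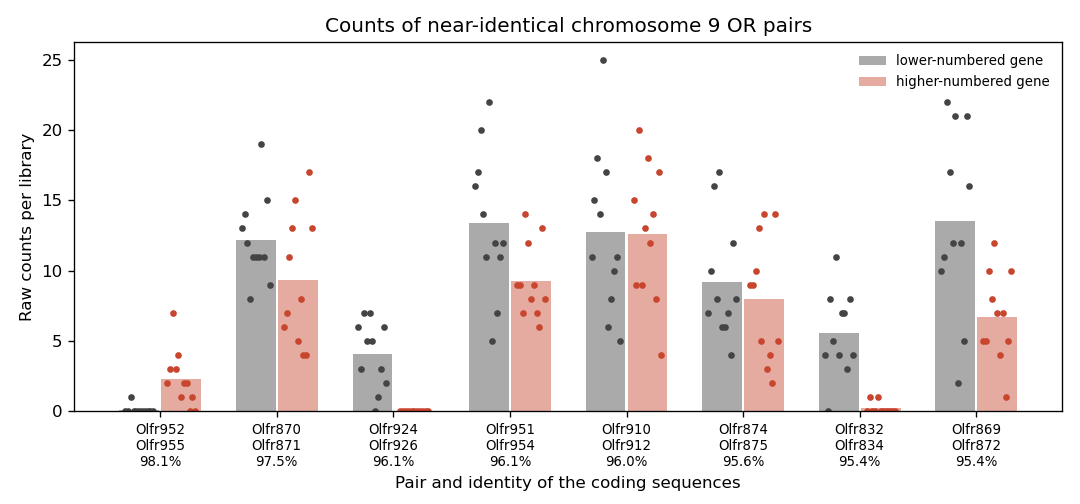
Raw counts per library (y axis) for the 8 member pairs with coding sequences more than 95% identical (x axis, with the identity in percent). Bars are means and points are the 11 libraries, spread sideways only to separate them. Olfr952, Olfr926 and Olfr834 have at most 1 count in any library, their partners Olfr955, Olfr924 and Olfr832 reach from 0 to 7, 7 and 11 counts, and Olfr910 and Olfr912 have 140 and 139 counts in all.

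Promoter sequence could be read for few members. RefSeq windows of 250 bases before to 50 bases after the annotated start (GRCm38.p6) existed for 92 members in 93 windows, but 71 of these windows started within 50 bases of the start codon and so describe coding-only models. In 21 windows, of 20 members, the start lay within 100 bases of a GENCODE transcript start and away from the codon. The motif TAATTA, the core that Lhx2 and other homeodomain proteins recognise and which reads alike on both strands, occurred in 5 of the 21 (23.8%), against 20.8% of 125 such windows of other OR genes and 4.09% of all 20616. The palindromic Ebf motif, TCCC and GGGA with any 2 bases between them, was in none of the 21, in none of the 125 windows of other OR genes and in 1.03% of all. The motifs do not overlap. A and T made up 50% to 72.7% of the bases in the 21 member windows, and TAATTA holds only these bases. The part of base composition in these shares was not tested. The windows of Olfr868, with 151 counts, and Olfr860, with 95 counts, hold TAATTA at 54 and 65 bases before the start. They are shown, with the motif in capitals, as the members with the most counts among those 5, a choice made after the counts were seen. Their positions are chr9:20098376-20098675 on the plus strand and chr9:19849698-19849997 on the minus strand.
Olfr868: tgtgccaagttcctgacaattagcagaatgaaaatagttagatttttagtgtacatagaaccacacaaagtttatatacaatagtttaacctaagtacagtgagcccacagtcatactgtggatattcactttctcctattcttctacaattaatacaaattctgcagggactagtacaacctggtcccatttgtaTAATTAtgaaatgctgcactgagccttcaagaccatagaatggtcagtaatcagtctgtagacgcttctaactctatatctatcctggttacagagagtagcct
Olfr860: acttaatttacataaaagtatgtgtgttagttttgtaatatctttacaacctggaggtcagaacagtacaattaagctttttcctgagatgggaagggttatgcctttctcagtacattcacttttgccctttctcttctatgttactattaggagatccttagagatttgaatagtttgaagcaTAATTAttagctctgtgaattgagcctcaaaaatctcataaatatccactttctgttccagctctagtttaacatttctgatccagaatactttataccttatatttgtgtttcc

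Library totals ranged from 9239866 to 14632525 counts. The members together took 422 to 1113 counts per library, which was 4.86% to 6.84% of all numbered OR counts and 5.99% over the 11 libraries together, from 9.94% of the genes. Between 87 and 102 members had at least 1 count in a library, 67 had a count in every library, and Olfr899, Olfr900 and Olfr926 had none in any. For a library near the middle of the range, heterozygous replicate 3, 746 member counts beside 11468 counts of other OR genes gave a share of 6.11% with a 95% Wilson interval of 5.70% to 6.55%, which covers counting error only. In the test of single genes 40 members (36.4%) passed the filter on low counts, against 519 of the other 997 OR genes (52.1%). The 70 members that did not pass still held 29.9% of the members' counts.

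A member was on average expressed at a lower level than another OR gene. The mean level over members, in CPM (counts per 1000000 counts of a library, its size scaled by the trimmed mean of M values), was 0.575 times the mean over other OR genes, a log2 ratio of -0.80 ± 0.154 (SD, n = 11 libraries) that was negative in 11 of 11 libraries and ranged from -1.11 to -0.59 (exact sign-flip test over libraries, two-sided, p = 0.000977, the smallest it can give). Per kb of exon the ratio was 0.664 (log2 -0.59 ± 0.179, negative in 11 of 11). Taking medians over the genes that passed the filter instead, the ratio was 0.831 (log2 -0.27 ± 0.195), and 10 of 11 libraries were below 0. All libraries are read through the same annotation and for the same genes. The sign-flip p therefore measures the spread between libraries and not between genes, and a steady difference of any size would reach it. The median exon length was 2886 bp for members and 2976 bp for other OR genes, and 15.7% of members against 27.4% of other OR genes had under 90% unique 51-base windows.

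**Figure D2:**
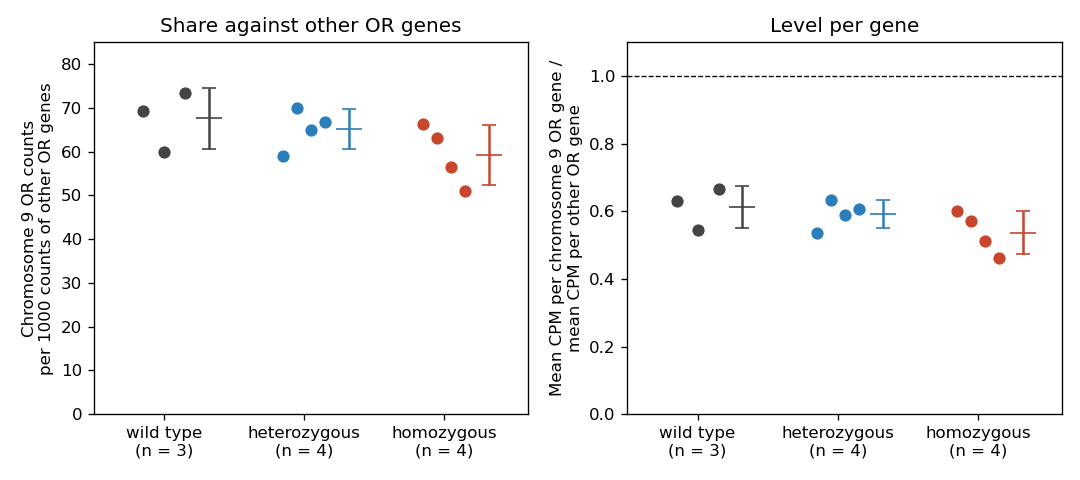
Left, counts of the 110 chromosome 9 OR genes per 1000 counts of the other OR genes, and right, mean CPM per chromosome 9 OR gene over mean CPM per other OR gene, for each library (points) with the group mean and SD beside them. All 11 libraries lie under the dashed line at a ratio of 1, and the genotypes overlap in both panels.

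Set beside the OR genes of the chromosomes that hold at least 10 numbered OR genes, the members had the lowest mean CPM per gene (0.594), with the 31 numbered OR genes on other chromosomes or without a position not compared. The 24 remaining chromosome 9 OR genes, which stand in and beside the same clusters, had 0.671, those of chromosome 2 had 0.756 and those of chromosome 14, at the upper end, 1.91. These are levels per gene with no correction for length.

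Within the family a few genes carried much of the signal. The highest member held 5.06% of the member counts, the 10 highest 29.1% and the 20 highest 46.0%. The group from Olfr874 to Olfr985 held 68.0% of the counts and 71.8% of the members, and the group from Olfr829 to Olfr873 held 31.98% of the counts and 26.4% of the members. The level along the chromosome was uneven. In stretches of 500 kb the first group averaged 66.1, 108 and 104 counts per member from its start to its end. The second group averaged 50.8, 48.4, 83.4, 81.8 and 106 counts per member, the last over the 17 genes from Olfr967 to Olfr985. Inside that last stretch, Olfr968, Olfr969, Olfr970 and Olfr972 lie within 106 kb and took 12.04% of all member counts. These 4 were picked after their values were seen, and they leave out Olfr971, which lies between Olfr970 and Olfr972 and had 16 counts.

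**Figure D3:**
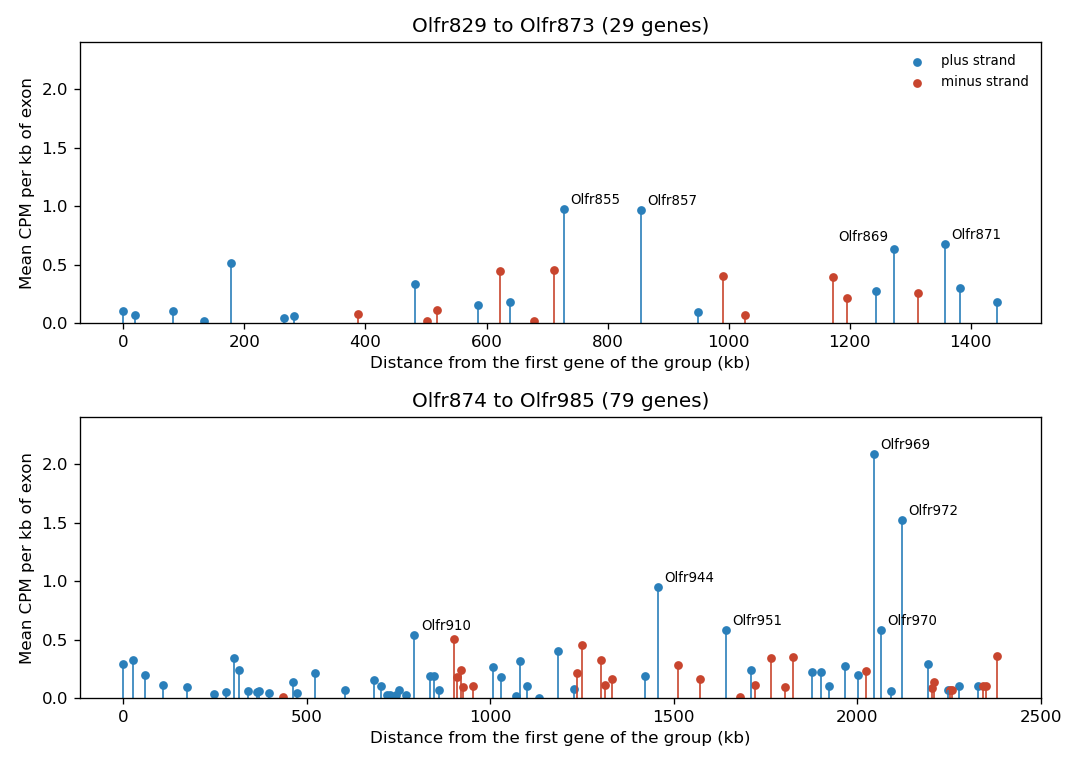
Mean CPM per kb of exon over the 11 libraries (y axis) for each placed member against its distance from the first gene of its position group (x axis, kb), coloured by strand. The 10 highest members are named, and Olfr969 and Olfr972 stand highest near the far end of the second group.

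Olfr969, at chr9:39790945-39796635, was the highest member, with a mean of 2.09 CPM per kb of exon. Its CPM was 4.73, 3.37 and 4.76 in wild type replicates 1 to 3, 2.52, 4.001, 3.70 and 3.53 in the heterozygous replicates, and 3.36, 1.64, 2.35 and 2.75 in the homozygous replicates. The 3 lowest homozygous libraries were under every wild type library, while wild type replicate 2 and homozygous replicate 1 were level, at 3.37 and 3.36 CPM, and the heterozygous libraries overlapped both. Olfr972, at chr9:39866422-39874651, was next with 1.52 CPM per kb, and its genotype means lay close together, at 1.47 ± 0.252 CPM per kb in wild type (SD, n = 3), 1.45 ± 0.460 in heterozygous (n = 4) and 1.63 ± 0.501 in homozygous mice (n = 4). Olfr968 and Olfr970 flank Olfr969 and both had lower levels, 0.230 and 0.584 CPM per kb.

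Olfr855 (0.979 CPM per kb), Olfr857 (0.967) and Olfr944 (0.948) followed, and do not differ beyond their spread over libraries. The remaining 5 of the 10 highest members, Olfr871, Olfr869, Olfr951, Olfr970 and Olfr910, lay between 0.676 and 0.539 CPM per kb and overlapped one another in every genotype. The first and last genes of the position groups were lower. Olfr829 had 35 counts in all and 0.101 CPM per kb, Olfr873 had 0.177, Olfr874 0.291 and Olfr985 0.361.

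**Figure D4:**
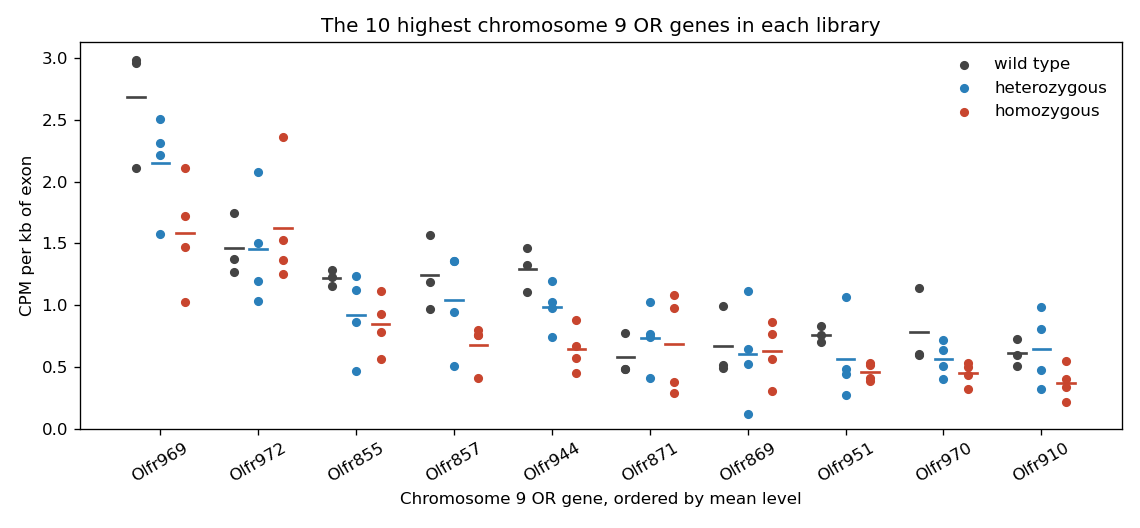
CPM per kb of exon in every library (points) and group means (short lines) for the 10 chromosome 9 OR genes with the highest mean level. Olfr969 has the highest mean in wild type and heterozygous libraries, and Olfr972 is level across genotypes at 1.47, 1.45 and 1.63. In Olfr944, pointed out after its values were seen, the homozygous points lie under the wild type points.

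The first question was whether loss of the Taar cluster alters the share of OSN transcripts that goes to the chromosome 9 receptors. The deletion itself was visible in the libraries: the 14 olfactory Taar genes summed to 6.98 to 9.61 CPM in wild type, 3.32 to 6.98 in heterozygous and 0.0841 to 0.258 in homozygous libraries. Per 1000 counts of other OR genes, members had 69.4, 59.97 and 73.5 counts in wild type, 59.0, 69.9, 65.1 and 66.9 in heterozygous, and 66.4, 63.2, 56.4 and 51.1 in homozygous libraries. The lowest values were homozygous replicates 3 and 4 and the highest was wild type replicate 3, but the genotypes overlapped. The mean was 67.6 ± 6.92 (SD, n = 3) in wild type, 65.2 ± 4.59 (n = 4) in heterozygous and 59.3 ± 6.87 (n = 4) in homozygous mice.

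Relative to wild type, the homozygous mean differed by -12.3% (exact permutation test, two-sided, p = 0.229) and the heterozygous mean by -3.54% (exact permutation test, p = 0.571). Relative to heterozygous mice the homozygous mean differed by -9.1% (exact permutation test, p = 0.2). The smallest p these designs allow is 0.0571 for 4 against 3 and 0.0286 for 4 against 4. None of these differences exceeded the spread between libraries. The first principal component of all libraries (41.6% of variance) divides them into a set of wild type 1 and 2, heterozygous 3 and 4 and homozygous 1 and 2, and a set of the rest. Within the former set the means per 1000 were 64.7, 66.0 and 64.8 for wild type, heterozygous and homozygous mice, and within the latter they were 73.5 (a single wild type library), 64.5 and 53.8. On this scale the homozygous mean was thus lower than wild type in the latter set and level with it in the former, and -12.3% is the value over both sets.

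On the CPM scale, where loss of OSN RNA as a whole also counts, the members summed to 79.9, 60.9 and 89.9 CPM in wild type libraries, with a mean of 76.9 ± 14.7 (SD, n = 3). The mean was 67.1 ± 11.2 (n = 4) in heterozygous and 55.0 ± 7.72 (n = 4) in homozygous libraries, a difference of -28.5% between homozygous and wild type means (p = 0.114, exact permutation test). By library set, the wild type, heterozygous and homozygous means were 70.4, 62.96 and 54.1 CPM in the set with wild type 1 and 2, and 89.9 (a single wild type library), 71.2 and 55.9 CPM in the other, so that homozygous libraries had the lowest mean in both. In the pairs that share a replicate number the homozygous library was the lower one in 3 of 3, at 62.1, 46.0 and 60.7 CPM. The other OR genes differed by -17.3% between the same genotypes (p = 0.114, exact permutation test). With the members entered as a single feature among 16535, the homozygous to wild type log2 fold change was -0.48 (SE 0.178, 95% interval -0.87 to -0.095). By edgeR's quasi-likelihood test its unadjusted p was 0.0189 and its adjusted p 0.996. The unadjusted p of edgeR was 0.0624 with the replicate number as a block, and 0.00408 (adjusted 0.412) with that block in a fit of homozygous and wild type libraries alone. No label gives this pairing, and same-numbered heterozygous libraries stood in another library set than their wild type and homozygous partners. With the library set as a covariate the unadjusted p of edgeR was 0.00720. With single libraries left out it ran from 0.00605 to 0.0900. Omitting wild type replicate 2 gave the lower value and omitting wild type replicate 3 the higher, and it was 0.0525 when wild type replicate 1 was omitted. The log2 fold change of the feature was -0.20 (SE 0.178, edgeR unadjusted p = 0.292) for heterozygous against wild type and -0.29 (SE 0.166, edgeR unadjusted p = 0.110) for homozygous against heterozygous. Scaled to the counts of the other OR genes, the homozygous to wild type value was -0.19, with an edgeR unadjusted p of 0.306 and adjusted p of 0.586.

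Gene by gene, none of the 40 tested members passed an adjusted p of 0.05 in any comparison by edgeR's quasi-likelihood test, where 0% of the 16574 tested genes did. None of the 107 members with an adjusted p passed by DESeq2. Of all genes DESeq2 called 8 for homozygous against wild type, 3 for heterozygous against wild type and 2 for homozygous against heterozygous. The lowest adjusted p of any gene for homozygous against wild type was 0.173 by edgeR. The 4 tested genes of the deleted Taar family, with a median log2 fold change of -6.51, did not pass either, although all 4 were lower at an unadjusted p under 0.05, so that the absence of member calls at this threshold says little. For homozygous against wild type the median log2 fold change was -0.42 over the members, -0.28 over the 519 other tested OR genes and 0.015 over all tested genes, and 34 of 40 members (85%) lay below 0, against 74.0% of the other OR genes and 47.2% of all tested genes. At an unadjusted p under 0.05, 6 members were lower and 0 higher, against 1.21% of all tested genes lower and 1.81% higher. Among the other OR genes 29 of 519 (5.59%) were lower at that level. DESeq2, without that filter, gave 7 of 107 members lower and 0 higher, against 1.23% of all its genes lower.

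The member count at an unadjusted p moved with the fit. With the replicate number as a block edgeR placed 3 of 40 members lower, against 0.609% of all tested genes. In a blocked fit of homozygous and wild type libraries alone, in which 29 members were tested, it placed 4 lower, against 3.01% of all tested genes, and 39 of all genes but no member passed the adjusted threshold. Without wild type replicate 3 the count was 2 of 44 members (1.8% of all tested genes). Without homozygous replicate 2 it was 3 of 39 (0.956%), and without homozygous replicate 4 it was 3 of 38 (0.751%). Without wild type replicate 1 it was 4 of 40 (1.1%). The median was -0.25 without wild type replicate 3. It was -0.17 when scaled to the other OR genes.

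**Figure D5:**
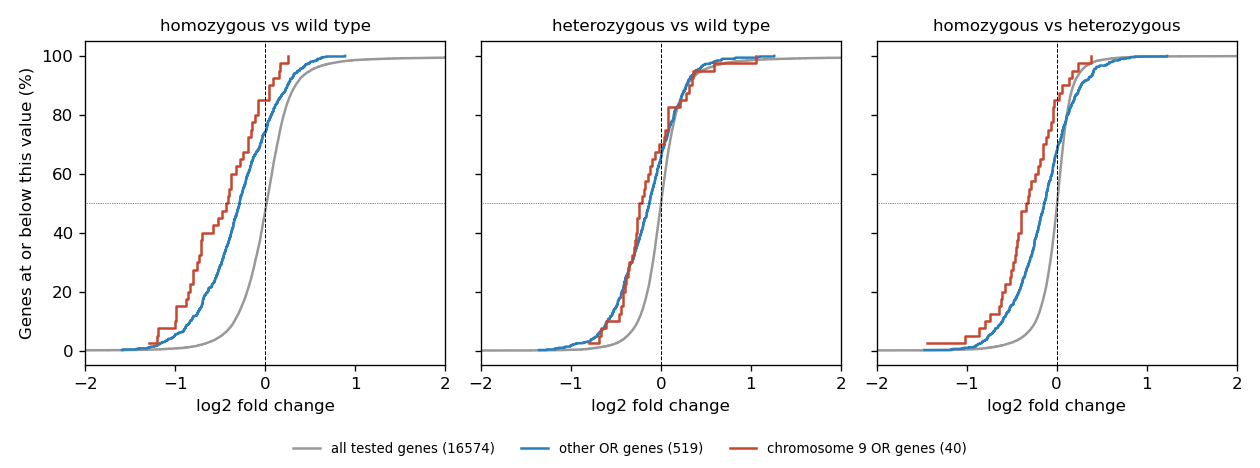
Share of genes at or below each log2 fold change (x axis) in the 3 comparisons, for 40 tested chromosome 9 OR genes, 519 other tested OR genes and all 16574 tested genes. Homozygous libraries have the members' curve furthest to the left in both comparisons that involve them, with medians of -0.42 and -0.33, and the 2 OR curves lie close together for heterozygous against wild type.

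The members with the lowest p for homozygous against wild type were Olfr968, Olfr944, Olfr969, Olfr857 and Olfr849, each with an edgeR adjusted p of 0.996. Olfr968, beside Olfr969, had 1.48, 1.44 and 1.94 CPM in wild type, 0.884, 0.784, 1.42 and 0.963 in heterozygous, and 0.589, 0.545, 0.954 and 0.688 CPM in homozygous libraries. All homozygous libraries were under all wild type libraries, and the heterozygous ones lay between them or overlapped the homozygous range. Its log2 fold change was -1.20 (SE 0.334, edgeR unadjusted p = 0.00385). For heterozygous against wild type it was -0.68 (SE 0.325, edgeR unadjusted p = 0.0579).

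Olfr944, at chr9:39201920-39218421, had 2.22, 1.68 and 2.02 CPM in wild type, 1.496, 1.57, 1.14 and 1.82 in heterozygous, and 1.35, 0.872, 1.03 and 0.688 in homozygous libraries. Here too wild type and homozygous libraries did not overlap. Olfr968 and Olfr944 were named for the lowest p, a choice that favours genes without overlap. The share of all tested genes without overlap was not counted. The log2 fold change of Olfr944 was -0.99 (SE 0.309, edgeR unadjusted p = 0.00762). Olfr969 gave -0.75 (SE 0.286, edgeR unadjusted p = 0.0222), Olfr857 -0.86 (SE 0.372) and Olfr849, with 3 to 26 counts per library, -1.19 (SE 0.521). The sixth member under an unadjusted 0.05 was Olfr970, at -0.80 (SE 0.359). Near the end of the cluster, Olfr968, Olfr969 and Olfr970 thus had values from -1.20 to -0.75 and Olfr972 had 0.15 (SE 0.325), while Olfr971 between them did not pass the filter for testing. By stretch of 500 kb, the median over tested members was -0.75 in this last stretch and -0.81 in the first stretch of the first group. The medians of the other stretches lay between -0.61 and -0.079. The coding sequences of Olfr968 and Olfr972 were 94.9% identical and those of Olfr969 and Olfr970 92.4%, and 85.6% to 95.7% of the 51-base windows of the 4 genes were unique.

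For heterozygous against wild type the median was -0.22 over members, -0.13 over other OR genes and 0.0018 over all tested genes, with 28 of 40 members (70%) below 0, against 65.3% of the other OR genes and 49.6% of all tested genes. None was lower at an unadjusted p under 0.05, against 0.495% of all tested genes, and 1 was higher, against 1.75%. Without heterozygous replicate 3 the count of members lower was 3 of 37, against 0.587% of all tested genes. The member higher in the fit of all libraries was Olfr920, with 9, 8 and 25 counts in wild type libraries and 39, 47, 13 and 20 in heterozygous ones. By raw counts heterozygous replicates 1 and 2 were the high libraries, and replicates 3 and 4 lay inside the wild type range. In CPM heterozygous replicate 4, the library with the fewest counts, also lay above every wild type library, while replicate 3 stayed inside their range. The log2 fold change was 1.06 (SE 0.477, edgeR unadjusted p = 0.0470, adjusted p = 0.99997). Next by p were Olfr968, Olfr868 at -0.67 (SE 0.398), Olfr970 at -0.46 (SE 0.353) and Olfr944 at -0.39 (SE 0.301).

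For homozygous against heterozygous, which share the heterozygous libraries with the comparison above, the median was -0.33 over members, -0.14 over other OR genes and 0.0062 over all tested genes, with 34 of 40 members (85%) below 0, against 67.4% of the other OR genes and 48.2% of all tested genes. At an unadjusted p under 0.05 edgeR placed 1 member lower, against 0.241% of all tested genes, and 0 higher, against 0.320%. Without heterozygous replicate 4 it placed 3 of 39 lower, against 0.382% of all tested genes. The member lower in the fit of all libraries was again Olfr920, whose homozygous counts were 12, 11, 12 and 6, with a log2 fold change of -1.44 (SE 0.448, edgeR unadjusted p = 0.00756). Olfr944 (-0.60, SE 0.294), Olfr910 (-0.80, SE 0.406), Olfr921 (-1.02, SE 0.571) and Olfr857 (-0.61, SE 0.351) came next.

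Olfr920 was also the member that varied most between libraries, with a chi-square of 7.01 per degree of freedom against counting noise, where the median was 1.61 over tested members and 1.76 over other tested OR genes. Olfr959, named for its spread after the values were seen, came second at 4.50. It had 28 to 54 raw counts in wild type replicate 3, heterozygous replicates 1 and 2 and homozygous replicates 3 and 4, which form the second library set, and 4 to 27 counts in the rest. In CPM the sets overlapped, with heterozygous replicate 2 under wild type replicate 1. Of the 40 tested members 13 had a value above 2.

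The proportion of the position groups was compared in the same way. The log2 ratio of the group from Olfr829 to Olfr873 over the group from Olfr874 to Olfr985 was -1.07 ± 0.131 (SD, n = 3) in wild type, -1.14 ± 0.168 (n = 4) in heterozygous and -1.08 ± 0.246 (n = 4) in homozygous libraries. No difference exceeded the spread (exact permutation tests, p = 0.971 and 0.571 for homozygous and heterozygous mice against wild type and 0.629 between the mutants, where 0.0571 and 0.0286 are the smallest these designs allow). By library set, the wild type and homozygous means were -1.13 and -0.97 in the set with wild type 1 and 2, and -0.94 (a single library) and -1.20 in the set with wild type 3, so that the difference had opposite signs in the 2 sets. Tested members had median homozygous to wild type values of -0.42 in the first group (12 of 15 below 0) and -0.43 in the second (22 of 25 below 0). By chromosome, the homozygous to wild type difference per 1000 other OR counts was -12.3% for the members, -12.3% for the other chromosome 9 OR genes, -13.2% for chromosome 2 and -10.7% for chromosome 10, while it was 8.77% for chromosome 7 and 19.8% for chromosome 4. These shares add to a whole, so that they cannot move independently.

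Markers of other cells were measured in the same libraries, and their part in these values was not tested. Mature OSN markers, among them Omp, Gnal, Adcy3, Rtp1 and Rtp2, lay below 0 in 12 of 12 genes for homozygous against wild type, with a median log2 fold change of -0.32, close to that of the other OR genes. Omp, which all mature OSNs express, averaged 562 ± 197 CPM over the 3 wild type libraries (SD), 502 ± 61.3 over the 4 heterozygous and 454 ± 77.7 over the 4 homozygous ones. By library set, Omp averaged 668 CPM in wild type against 399 CPM in homozygous libraries of the set with wild type 1 and 2. In the other set it read 349 CPM in the single wild type library and averaged 509 CPM in the homozygous ones. Gnal, Adcy3, Rtp1 and Rtp2, the last 2 of which carry ORs to the cell surface, had homozygous to wild type values of -0.34, -0.16, -0.25 and -0.32. Immature OSN markers had a median of 0.039 over 7 genes and the 15 OR choice and export genes -0.020, with Lhx2 at 0.21 and Ldb1 at 0.43. Sustentacular markers had a median of -0.17 over 5 genes, and 1 of 4 erythrocyte markers was tested, at 0.50. No gene of these lists passed the adjusted threshold in any comparison.

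Skeletal muscle markers, of a tissue outside the epithelium, summed to 7.32 to 58.2 CPM over 9 genes in wild type, 16.7 to 1665 in heterozygous and 20.4 to 785 in homozygous libraries. Without the 4 libraries above 400 CPM the members' single-feature value for homozygous against wild type was -0.45 and their share per 1000 other OR counts differed by -13.1%. The count of members lower at an unadjusted p under 0.05 was then 1 of 38, against 0.532% of all tested genes, and the edgeR unadjusted p of the single feature was 0.0917.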

How the data were processed

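Whole MOE RNA was extracted from wild type (n = 3), heterozygous (n = 4) and homozygous (n = 4) Taar cluster deletion mice, and polyA libraries were made with a directional kit. The authors mapped the reads to mm10 with HISAT2 2.1.0 and counted them per gene with featureCounts (Subread 1.6.2); Trimmomatic 0.36 and DESeq2 1.20.0 also appear in the submitters' processing notes. The annotation, strand setting and treatment of multiply aligned reads are not given in the sources used here. The deposited raw counts, 1 column per library, were used; the deposited normalised table was not used.

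The members and gene lists were chosen with earlier results of these data known. Counts were scaled by the trimmed mean of M values and fitted over the 3 genotypes with edgeR 4.0.16 (R 4.3.3; filterByExpr by genotype, 16574 genes, quasi-likelihood F test, Benjamini-Hochberg over all of them). Fitted log2 fold changes include edgeR's prior count, and each SE was taken from the fold change and its F statistic. CPM used the scaled library sizes. Sums, shares and ratios per library were compared by exact two-sided permutation tests. DESeq2 1.42.0, relative log expression scaling, no filter, a replicate block, the library set as a covariate and omission of each library were alternatives, as was scaling to the other OR counts. The fit was tested on simulated data. Positions and coding sequences came from GENCODE M21 and promoter windows from RefSeq (GRCm38.p6). Identity was computed with Biopython 1.88 global alignment over the longest coding sequence of each gene. Each member was aligned only with the Olfr genes that shared the most short stretches with it.

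Named members were the 10 with the highest mean CPM per kb of exon, the 5 with the lowest p per comparison and the ends of the position groups; others are marked as chosen after their values were seen. Marker lists covered mature and immature OSNs, OR choice and export, sustentacular, skeletal muscle, erythrocyte and olfactory Taar genes. Same-numbered homozygous and wild type libraries had correlated deviations (0.326 to 0.415 in 3 of 3 pairs, from the data and not the labels). Same-numbered pairs of heterozygous with wild type (-0.38 to -0.19) or homozygous libraries (-0.58 to -0.40), which all stand in different library sets, did not. Over all pairs the correlation followed the library set, which was itself read from these values: it was 0.126 to 0.707 within a set and -0.58 to -0.049 between sets. Depth was 9239866 to 14632525 counts per library, and intervals on shares cover counting error only.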

Additional observations from a re-analysis of the deposited data

Results flagged for a closer look

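Among 48 groups of 4 libraries examined, for 19 named members and 5 summed measures in heterozygous and homozygous mice, 3 held a library far from the other 3 by Dixon's criterion at the 95% level. Chance flags about 1 in 20 such groups, and wild type, with 3 libraries, was not examined. Homozygous replicate 4 had a log2 ratio of the position groups of -1.45, where the nearest library had -0.98 and the farthest -0.95. In the same library Olfr857 had 0.947 CPM, against 1.74 to 1.85 CPM in the others. Heterozygous replicate 2 had 1.33 CPM of Olfr874, against 0.544 to 0.642 CPM in the others.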

How the results depend on the processing

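No member passed an adjusted p of 0.05 under any alternative run. The members' single-feature value stayed negative and did not pass the adjusted threshold in any of them; it ran from -0.63 to -0.36 with single libraries left out for homozygous against wild type, -0.34 to -0.069 for heterozygous against wild type and -0.40 to -0.18 for homozygous against heterozygous. Their medians ranged from -0.61 to -0.25, -0.34 to -0.037 and -0.42 to -0.25. Scaled to the counts of other OR genes, the homozygous to wild type median was -0.17, since that scaling removes what the OR genes share. The share per 1000 other OR counts ranged from -17.0% to -8.28%, -8.70% to 0.821% and -12.8% to -4.92%; the heterozygous value turned positive without wild type replicate 3, and the cause was not tested. Within the first library set it was 0.182% for homozygous and 1.97% for heterozygous against wild type. The difference in the log2 ratio of the position groups ranged from -0.085 to 0.106 for homozygous against wild type, -0.144 to -0.0022 for heterozygous against wild type and -0.015 to 0.182 for homozygous against heterozygous, and was 0.0059 for homozygous against wild type without the highest member of each group. The level ratio of members to other OR genes ranged from -0.82 to -0.77. The homozygous to wild type count of members lower at an unadjusted p ran from 2 to 8, of 36 to 44 tested, with single libraries left out (0.751% to 2.17% of all tested genes), and was 11 of 107 without the filter on low counts (1.44% of all). With single libraries left out it ran from 0 to 3 for heterozygous against wild type (0.285% to 1.56% of all tested genes) and from 1 to 3 for homozygous against heterozygous (0.181% to 0.698%), and without that filter it was 2 of 107 (0.643% of all) and 3 of 107 (0.509%). Over all genes DESeq2 called 8, 3 and 2 and edgeR, over the 3 genotypes without a block, 0; the blocked edgeR fit of homozygous and wild type libraries alone called 39. With the replicate block over all libraries the single-feature values were -0.42, -0.12 and -0.29, and that block changed no call at an adjusted p. At an unadjusted p it placed 3 of 40 members lower in place of 6, where the share of all tested genes went from 1.21% to 0.609%, and the p of the single feature moved from 0.0189 to 0.0624, for homozygous against wild type by edgeR. The median member had 55 counts over all 11 libraries, which limits single-gene precision.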
